A study of Homo sapiens with 2 samples.

Results

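The genes of the Fanconi anemia pathway and of homologous recombination repair were followed as 1 group of 41 genes, chosen by name from what their proteins do, among 46427 gene rows of the deposited table. Each name matched 1 row. Earlier results of these data were known when the genes were chosen. The label on the cells is MIA PaCa-2, a human line from an adenocarcinoma of the pancreas, and RNA sequencing was done on 1 library from cells given vehicle and 1 library from cells given iMQT_020, each for 48 hours. The series describes iMQT_020 as an inhibitor of glutamine transport into mitochondria, and no genotype, added allele or further agent is named for either group. The comparison asks how the transcripts of these repair genes differ after exposure to the compound.

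The Fanconi pathway repairs covalent links between the strands of DNA, which block replication forks. A core complex of Fanconi proteins recognises the stalled fork and attaches ubiquitin to FANCD2 and FANCI, nucleases then cut out the link, and the resulting break is mended by homologous recombination, which copies the sequence from the sister chromatid. BRCA1, BRCA2 and PALB2 load the recombinase onto DNA, and the kinases ATM and ATR signal the damage and hold the cell cycle. Many of these genes are transcribed mainly in S phase, so proliferating tumour cells usually express all of them, and inherited loss of BRCA2 or PALB2 is known to raise the risk of pancreatic cancer.

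The libraries held 67095283 estimated counts (vehicle) and 59139157 (iMQT_020). With 1 library per treatment there is no replicate check of any difference, no test of the treatment was possible, and no SD can be given. The 95% interval beside a ratio is an exact Clopper-Pearson interval that covers counting error only, and an effect of the compound cannot be told apart from whatever else set the 2 libraries apart. The identity of the cells is also in doubt, because CDKN2A, a gene deleted in MIA PaCa-2, stood at 278 TPM (vehicle) and 208 TPM (iMQT_020), while CD44, abundant in that line, stood at 0.0964 and 0.0209 TPM. Of the other markers read, VIM was at 403 and 438 TPM, KRT8 at 128 and 92.3 TPM, KRT19 at 0 in both, and IRS4, known from embryonic kidney lines, at 521 and 148 TPM. PTPRC, CD3E and DCN, which mark immune cells and fibroblasts, were listed at 0 in both libraries, EPCAM had 4 and 0 counts, VWF 14 and 16 and PECAM1 0 and 29, while CD68 was at 0.985 and 1.44 TPM and COL1A1 at 16.5 and 11.1 TPM.

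The repair genes differed in both directions between the libraries, mostly by small ratios, much as other genes counted as deeply did. Of the 41 genes, 40 were measured, meaning that they had at least 50 counts in at least 1 library. None of the 40 was at least 2-fold apart, against 5.23% of all 14805 measured genes (2.15% higher and 3.09% lower in the iMQT_020 library) and 1.28% of the 9312 genes that reached 1000 counts in a library. By a smaller step, a log2 ratio of 0.32 or more in either direction (at least 25% higher or 20% lower), 4 members were higher (SLX4, BRCA2, ATRIP and WRN), against 17.4% of all measured genes, and 8 were lower (FANCG, CHEK2, BARD1, RAD51B, EXO1, UBE2T, FANCA and MUS81), against 21.8%. Among genes that reached 1000 counts, 14.1% were higher and 15.9% lower by this step, against 10% and 20% of the members. The 12 members past this step made up 30.0% of those measured, the same share as among genes that reached 1000 counts (30.0%), a depth that 39 members reached. Ratios lay below 0 for 24 members and above 0 for 16, and the median log2 ratio of CPM (counts scaled to equal library size, iMQT_020 over vehicle) was −0.07, against −0.02 over all measured genes, of which 52.7% lay below 0. The counting interval lay wholly below 0 for 20 members, wholly above 0 for 13, and included 0 for 7. The same split over all measured genes is not given here. A counting interval narrows as counts rise, so at this depth it can exclude 0 for a small difference. In bulk RNA, a different share of cells in S phase and a different amount of transcript per cell cannot be told apart.

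Transcript levels per length, in deposited TPM, spanned 7.15 (SLX4) to 267 (UBE2T) among measured members with vehicle, and 7.90 (RAD51D) to 204 (UBE2T) with iMQT_020. The median member stood at 28.3 and 27.7 TPM. After UBE2T came EXO1 (128 and 97.7 TPM) and FANCI (105 and 97.5 TPM), and RAD51D, RAD51B and SLX4 were the least abundant of the measured members in the vehicle library. One gene stood apart: FANCF, an intronless gene for a core complex subunit, had 23 counts with vehicle and 39 with iMQT_020, which is 0.228 and 0.458 TPM. It fell below the minimum of 50 counts, so its log2 ratio of 0.92 (interval 0.16 to 1.75) is not counted with the others.

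**Figure D1:**
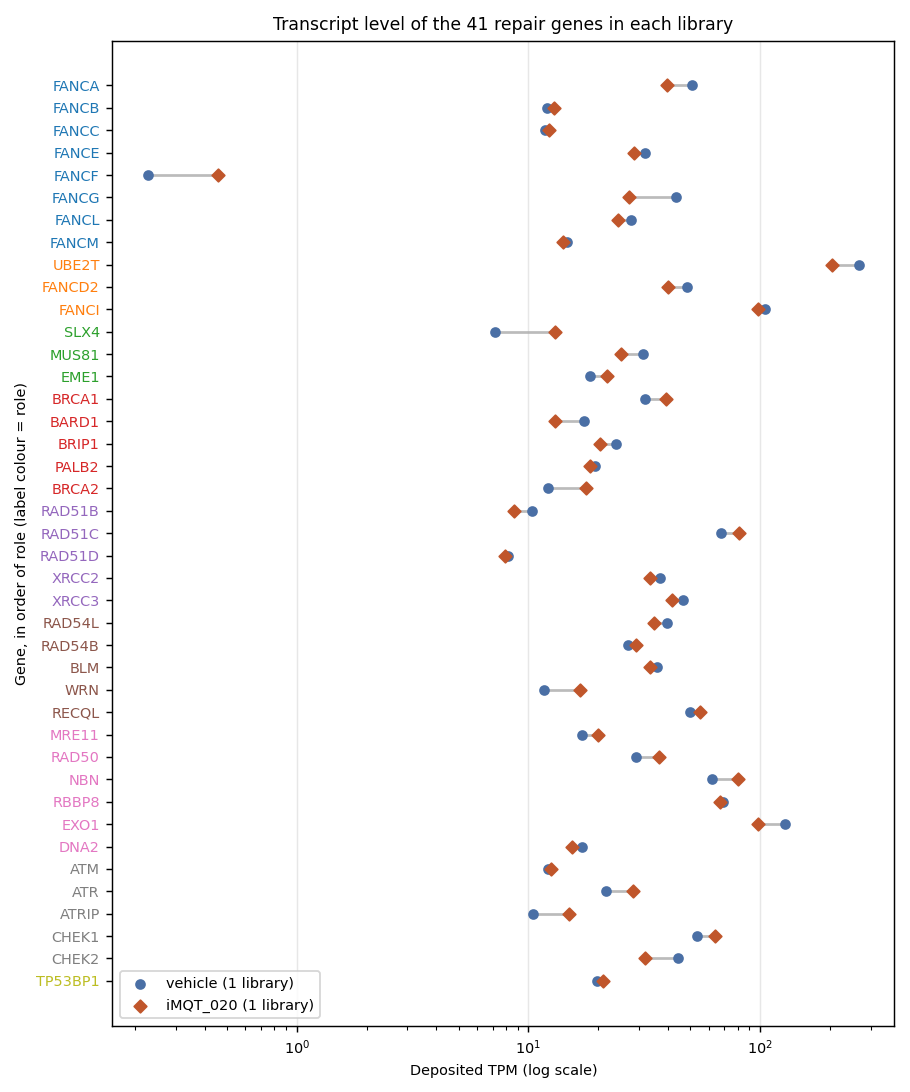
Deposited TPM of the 41 genes on a log axis, 1 point per library (circles, vehicle; diamonds, iMQT_020), with gene labels coloured by role. UBE2T is highest at 267 and 204 TPM, FANCF lies alone below 1 TPM, and of the 41 lines only that of FANCF spans 2-fold.

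In the Fanconi core complex, 6 of the 7 measured members had ratios below 0, with a median log2 ratio of −0.20. FANCG, an adaptor that binds FANCA, lies on (GRCh38) chr9:35073839-35079942. It had 3316 counts with vehicle and 1777 with iMQT_020 (43.5 and 27.2 TPM), a log2 ratio of −0.72 (−0.81 to −0.64). This 1.65-fold lower level was the lowest ratio of all members, and 6.93% of all measured genes had a lower one. FANCA, its partner, had 7387 and 5026 counts (50.7 and 39.7 TPM) and a log2 ratio of −0.38 (−0.43 to −0.33). The ubiquitin ligase subunit FANCL had 1473 and 1110 counts and a ratio of −0.23 (−0.35 to −0.12). FANCB, which holds FANCL in the complex, had 1570 and 1375 counts and a ratio of −0.02 (−0.12 to 0.09). FAAP100, the third subunit of this catalytic module and a companion gene named after its values were seen, had 2614 and 1726 counts and a ratio of −0.42 (−0.51 to −0.33). Other companion genes of the core complex lay on both sides of 0. FAAP20 was at −0.45 and CENPX at −0.64, while FAAP24 was at 0.36 and CENPS at 0.03. In the substrate-binding arm, FANCE had 2441 and 1885 counts and a log2 ratio of −0.20 (−0.28 to −0.11). FANCC, which binds FANCE, had 1531 and 1317 counts and a ratio of −0.04 (−0.15 to 0.07). FANCM, the translocase that anchors the complex to DNA, was alone above 0 among the 7 measured members. It had 2631 and 2438 counts and a ratio of 0.07 (−0.01 to 0.15).

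All 3 genes of the ubiquitin step were lower in the iMQT_020 library. UBE2T, the ubiquitin-conjugating enzyme that works with FANCL, had 7000 and 4576 counts and a log2 ratio of −0.44 (−0.49 to −0.38), 1.35-fold lower. FANCD2, a target of the enzyme, had 7379 and 5229 counts and a ratio of −0.32 (−0.37 to −0.27), just short of the 0.32 step. FANCI, the other target and the partner of FANCD2, was the most deeply counted member with 14785 and 11790 counts, and its ratio was −0.15 (−0.19 to −0.12). The partners differed by −0.17 log2 (FANCD2 minus FANCI, −0.23 to −0.11), so that the TPM of FANCD2 was 0.462 times that of FANCI with vehicle and 0.411 times with iMQT_020. FANCD2 has 2 related pseudogenes with rows of their own, FANCD2P1 (33 and 32 counts) and FANCD2P2 (16 and 23 counts), and reads shared with them could not be separated here.

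Of the nuclease genes and their scaffold, SLX4 and EME1 were higher in the iMQT_020 library and MUS81 was lower. SLX4, the scaffold that brings nucleases to crosslinks, lies on chr16:3581181-3611606. It had 1913 counts with vehicle and 2750 with iMQT_020 (7.15 and 13.0 TPM), and its log2 ratio of 0.70 (0.62 to 0.78), 1.62-fold higher, was the highest of all members. Of all measured genes, 95.6% had a lower ratio. MUS81, a nuclease that docks on SLX4, had 2186 and 1502 counts and a ratio of −0.37 (−0.46 to −0.27). EME1, a partner of MUS81, had 1282 and 1340 counts and a ratio of 0.24 (0.13 to 0.35). The balance between the partners, which does not depend on library scaling, differed by 0.61 log2 (EME1 minus MUS81, 0.46 to 0.75), and the TPM of EME1 was 0.588 times that of MUS81 with vehicle and 0.873 times with iMQT_020. The 3′ end of EME1 shares 246 bases with LRRC59, an abundant gene on the opposite strand with 20470 and 17191 counts.

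**Figure D2:**
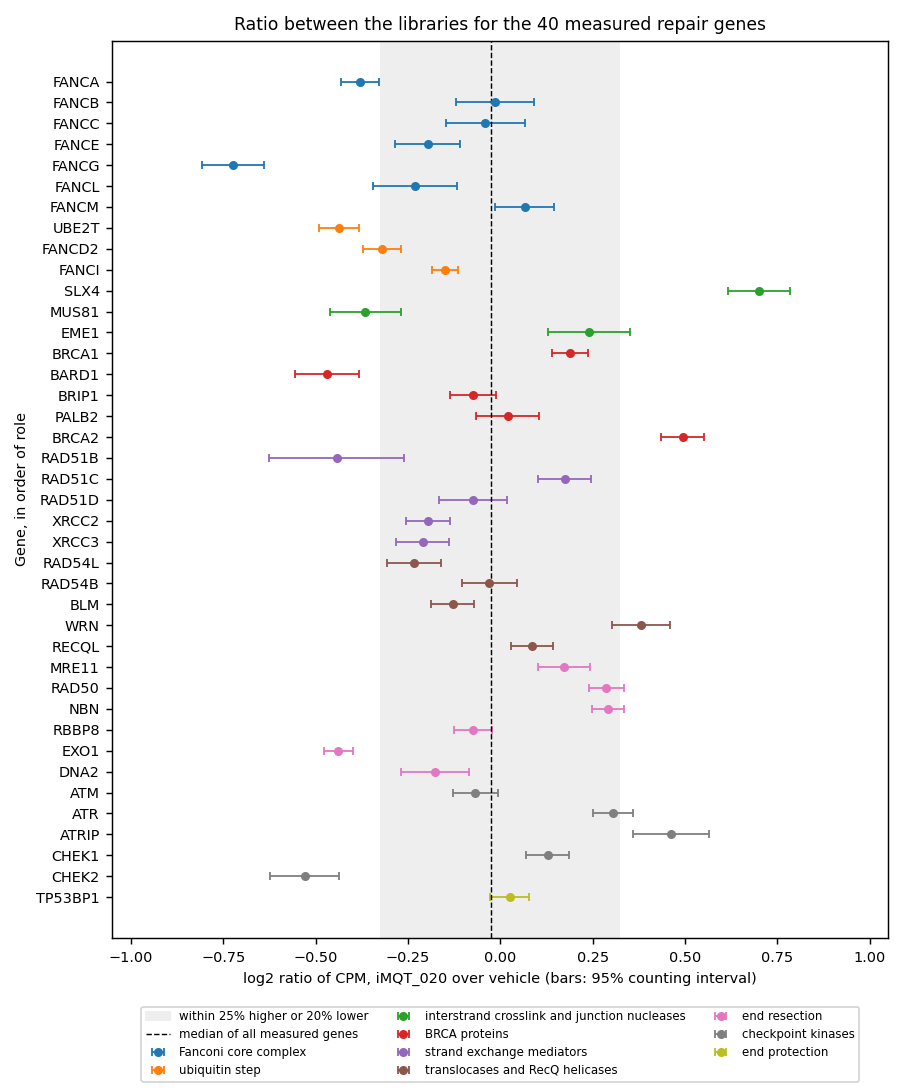
Log2 ratio of CPM, iMQT_020 over vehicle, for the 40 measured genes in order of role; bars are 95% counting intervals, the grey band runs from −0.32 to 0.32 and the dashed line is the median of all measured genes (−0.02). SLX4 at 0.70 and FANCG at −0.72 lie farthest out, and 28 of 40 points lie inside the band.

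BRCA1 and BARD1, which form 1 ubiquitin ligase, also differed in direction. BRCA1 (chr17:43044295-43170327) had 6583 and 6643 counts, or 31.8 and 39.1 TPM, and a log2 ratio of 0.19 (0.14 to 0.24). BARD1 had 2790 and 1785 counts, or 17.4 and 13.0 TPM, and a ratio of −0.47 (−0.55 to −0.38). The TPM of BRCA1 was thus 1.83 times that of BARD1 with vehicle and 3.02 times with iMQT_020, a difference of 0.66 log2 in counts (0.56 to 0.76). BRCA2, the protein that loads the recombinase, lies on chr13:32315077-32400268. It had 4344 counts with vehicle and 5414 with iMQT_020 (12.2 and 17.7 TPM), a ratio of 0.49 (0.44 to 0.55), higher than 91.3% of measured genes. PALB2, the bridge between BRCA1 and BRCA2, had 2328 and 2089 counts and a ratio of 0.02 (−0.07 to 0.11). The BRCA2 to PALB2 balance differed by 0.47 log2 (0.37 to 0.58), higher with iMQT_020. BRIP1, a helicase that binds BRCA1, had 4553 and 3830 counts and a ratio of −0.07 (−0.14 to −0.01). The gene span of BRCA1 also holds NBR2, an antisense transcript with 102 and 117 counts, and LOC101929767 with 64 and 79. Neither made up more than 1.73% of counts summed with those of BRCA1.

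Of the strand exchange mediators, which are paralogs of the recombinase and stabilise its filament, 4 of 5 lay below 0. RAD51B was the least deeply counted measured member, with 622 and 405 counts, and its log2 ratio of −0.44 had the widest interval (−0.63 to −0.26). RAD51C, shared by both paralog complexes, had 3187 and 3182 counts and was the member above 0, at 0.17 (0.10 to 0.25). RAD51C and RAD51B, which bind each other directly, thus differed by 0.62 log2 (0.42 to 0.81). XRCC3, the partner of RAD51C in the smaller complex, had 3558 and 2721 counts and a ratio of −0.21 (−0.28 to −0.14). Relative to genes of like GC content and transcript length XRCC3 turned to 0.13, and its difference from RAD51C went from 0.38 (RAD51C minus XRCC3) to 0.02. XRCC2 had 5281 and 4082 counts and a ratio of −0.20 (−0.25 to −0.14). RAD51D, which binds XRCC2, had 2101 and 1765 counts and a ratio of −0.08 (−0.17 to 0.02). A read-through gene, RAD51L3-RFFL, runs over RAD51D and had 136 and 49 counts. Summed with it, RAD51D had 2237 and 1814 counts and a ratio of −0.13 (−0.22 to −0.04).

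Among the translocases and RecQ helicases, WRN stood out. WRN, the helicase and exonuclease mutated in Werner syndrome, had 2414 counts with vehicle and 2782 with iMQT_020 (11.6 and 16.7 TPM) and a log2 ratio of 0.38 (0.30 to 0.46). BLM, the Bloom syndrome helicase that dissolves recombination intermediates, had 5332 and 4316 counts and a ratio of −0.13 (−0.19 to −0.07). RECQL, the most abundant of these helicases, had 5159 and 4842 counts (50.1 and 55.3 TPM) and a ratio of 0.08 (0.03 to 0.14). The 3 helicases therefore did not share a direction. RAD54L, a motor protein that helps the recombinase find its partner sequence, had 3600 and 2710 counts and a ratio of −0.23 (−0.31 to −0.16). RAD54B, its paralog, had 3178 and 2756 counts and a ratio of −0.03 (−0.10 to 0.04).

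Of the 6 end resection genes, 3 lay above 0 and 3 below. MRE11, RAD50 and NBN, the subunits of the complex that senses breaks and starts resection, were all higher in the iMQT_020 library. MRE11 had 3323 and 3313 counts and a log2 ratio of 0.17 (0.10 to 0.24). RAD50 had 7146 and 7719 counts and a ratio of 0.29 (0.24 to 0.33). NBN, the most abundant of the 3 at 62.1 and 80.3 TPM, had 8573 and 9283 counts and a ratio of 0.29 (0.25 to 0.33). None of the 3 reached the 0.32 step, and relative to genes of like GC content and transcript length they were at −0.01 (MRE11), 0.08 (RAD50) and 0.12 (NBN). RBBP8, which activates this complex, had 6694 and 5633 counts and a ratio of −0.07 (−0.12 to −0.02). EXO1, a nuclease of long-range resection, had 13096 counts with vehicle and 8551 with iMQT_020 (128 and 97.7 TPM), a ratio of −0.44 (−0.48 to −0.40). DNA2, which acts in parallel with EXO1, had 2180 and 1708 counts and a ratio of −0.18 (−0.27 to −0.08).

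The checkpoint genes lay on both sides of 0, with CHEK2 the farthest below. CHEK2, the effector kinase downstream of ATM, had 2470 counts with vehicle and 1514 with iMQT_020 (44.4 and 31.9 TPM), and its log2 ratio of −0.53 (−0.62 to −0.44) was the second lowest of all members. CHEK1, the effector downstream of ATR, had 4852 and 4695 counts and a ratio of 0.13 (0.07 to 0.19). The TPM of CHEK1 was 1.21 times that of CHEK2 with vehicle and 2.005 times with iMQT_020, and their counts differed by 0.66 log2 (0.55 to 0.77). Of the upstream kinases, ATM had 4601 and 3886 counts and a ratio of −0.07 (−0.13 to −0.01). ATR had 5293 and 5788 counts and a ratio of 0.31 (0.25 to 0.36), inside the 0.32 step. In TPM, ATM was on the other side of 0, at 0.05. Relative to genes of like GC content and transcript length, ATR and CHEK1 were at 0.03 and 0.05. TP53BP1, which protects broken ends from resection, had 6092 and 5486 counts and a ratio of 0.03 (−0.03 to 0.08). The 4 CHEK2 pseudogenes with rows of their own were listed at 0 in both libraries, so reads common to them and CHEK2 may all have been given to CHEK2.

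ATRIP, the subunit that brings ATR to single-stranded DNA, was past the 0.32 step in its own row but not at its locus. It lies on chr3:48446737-48467645 and had 1406 counts with vehicle and 1715 with iMQT_020, a log2 ratio of 0.46 (0.36 to 0.57). The read-through gene ATRIP-TREX1 covers nearly the same span, on the same strand, and had 442 counts with vehicle and 12 with iMQT_020. It made up 23.9% of the summed counts with vehicle and 0.695% with iMQT_020. Summed over both rows, the locus had 1848 and 1727 counts and a ratio of 0.08 (−0.02 to 0.17), a value below which 61.2% of measured genes lay. TREX1 itself was listed at 0 in both libraries. With both gene models summed, the ATRIP locus was within the 0.32 step.

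**Figure D3:**
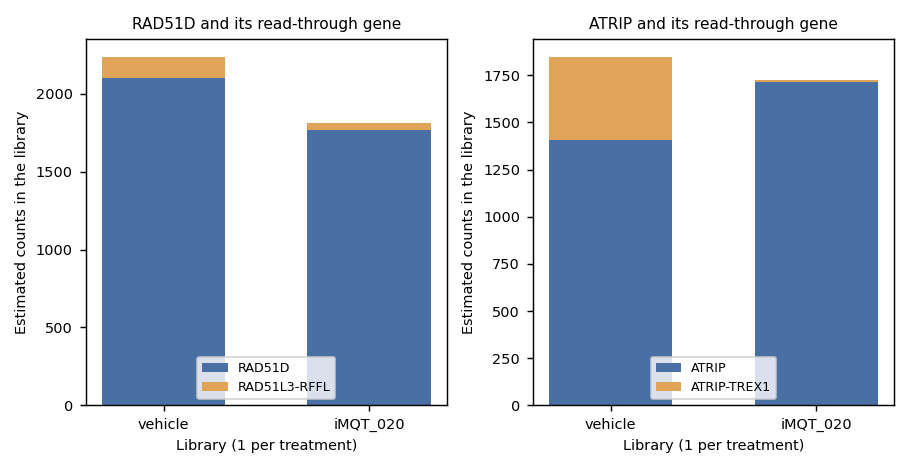
Estimated counts of RAD51D (left) and ATRIP (right) in each library, stacked with the read-through gene that overlaps each; axes start at 0. ATRIP-TREX1 adds 442 counts with vehicle and 12 with iMQT_020, and the summed bars of that locus are 1848 and 1727.

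Of the 41 members, 15 share part of their span with another gene model of at least 50 counts, introns included. Besides the read-through genes, LRRC59, NBR2 and LOC101929767, these were neighbours that mostly meet a member at an end. ZNF276 shares 3377 bases with FANCA and had 2854 and 2926 counts (log2 ratio 0.21, against −0.38 for FANCA). KLC1 shares 3928 bases with XRCC3 and had 5141 and 5949 counts (0.39, against −0.21). LRRC41 shares 1012 bases with RAD54L and had 5150 and 5064 counts (0.15, against −0.23). In these 3 cases the member and its neighbour lay on different sides of 0, as did FANCL and VRK2 (678 bases, 4048 and 4017 counts, 0.17), FANCC and AOPEP (51171 bases, 780 and 832 counts, 0.27) and FANCI and POLG (940 bases, 8288 and 7471 counts, 0.03). PYROXD1, which shares 2341 bases with RECQL, had 1201 and 1563 counts and a ratio of 0.56, and ANKRD49, inside MRE11, had 1093 and 1023 counts and a ratio of 0.08. TUBGCP4 shares 6711 bases with TP53BP1 (4724 and 3885 counts, −0.11), FSBP lies inside RAD54B (285 and 263 counts, 0.06), and C11orf65 overlaps ATM (76 and 66 counts, −0.03). TP53BP1 (0.03) and RAD54B (−0.03) also lay on the other side of 0 from TUBGCP4 and FSBP, though the intervals of both members include 0. EME1 (0.24) and LRRC59 (−0.08) lay on different sides as well. The 25 measured members without such an overlap had a median log2 ratio of −0.07, the same to 2 decimals as all 40.

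Other genes of the same pathways, and lists of neighbouring processes, were read in the same way. All 64 companion genes (accessory subunits, replication protein A, the checkpoint clamp, the BRCA1-A and shieldin complexes and similar) were measured. None was 2-fold apart, 14 were higher and 12 lower by the 0.32 step, and the median log2 ratio was −0.01. The 4 with the largest ratios were H2AX, the histone variant that marks breaks, at −0.85 (6480 and 3190 counts), UHRF1, a chromatin protein that also senses crosslinks, at −0.68, CENPX, a partner of FANCM, at −0.64, and RECQL4, a RecQ helicase, at −0.54. MDC1, an adaptor that binds marked H2AX and was named after its values were seen, followed at 0.53. Centred on GC content and length, the largest ratio was that of SWI5, a recombination mediator, at 0.69. The 13 genes of end joining, the competing pathway of break repair, had a median of −0.04, with 2 higher and 3 lower by that step. Replication genes stood lower as a list, with a median of −0.33 over 40 genes with 1 higher and 21 lower by the step. Mitosis genes had a median of 0.32 over 38, with 19 higher and 9 lower by the step, 3 of the lower ones by 2-fold or more. Of all measured genes, 17.4% were higher and 21.8% lower by the step, and 3.09% were lower by 2-fold or more. The shares higher and lower by the step were 21.9% and 18.8% (companion), 15.4% and 23.1% (end joining), 2.5% and 52.5% (replication) and 50% and 23.7% (mitosis). The repair genes, at −0.07, lay between these lists and near the median of all genes. The lists were chosen with earlier results of these data known, and no test of a difference between them was made.

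**Figure D4:**
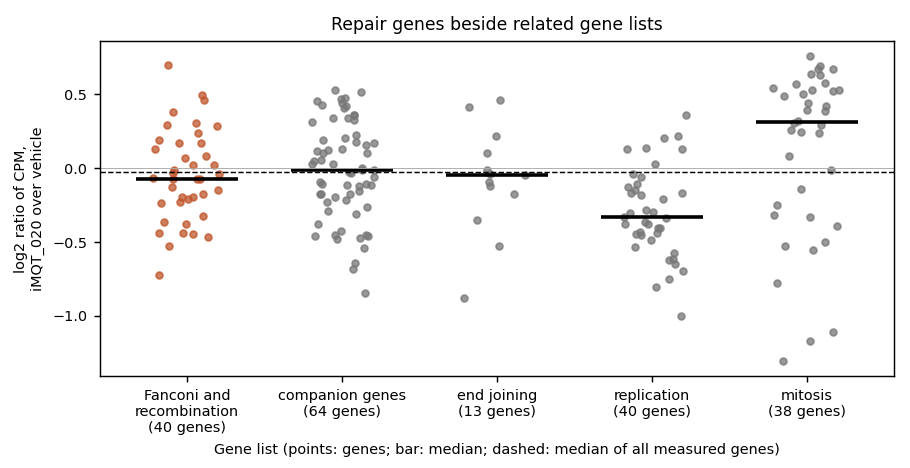
Log2 ratio of CPM for the measured genes of 5 lists; each point is a gene, bars are medians and the dashed line is the median of all measured genes. The medians are −0.07 for the repair genes, −0.01 for companion genes, −0.04 for end joining, −0.33 for replication and 0.32 for mitosis.

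The E2F transcription factors drive many S-phase genes, so promoters were searched for the letters TTTGGCGC, TTTCCCGC, TTTCGCGC or TTTGCCGC on both strands, in windows from 250 bases before to 50 bases after each annotated start. RefSeq promoters (GRCh38.p14) matched 36 of the 41 members, 35 of them measured, and those without an entry were DNA2, FANCI, NBN, RAD54B and WRN. The letters were found in 5 of the 35, EXO1, FANCA, FANCD2, XRCC2 and FANCC, and all 5 had log2 ratios below 0 (median −0.32), though FANCC was at −0.04 with an interval that includes 0 and at 0.07 in TPM. Of the 30 without them, 16 lay below 0 (median of the 30 −0.04), among them the 4 lowest members, FANCG, CHEK2, BARD1 and RAD51B. Among all 11295 measured genes with a promoter no such split was seen: 52.7% of the 754 with the letters lay below 0 and 51.5% of the others. The letters occur in 3.31% of all 35116 promoter windows and in 6.68% of measured genes with a promoter, against 14.3% of these members, and a match shows no binding. The stretches of 100 bases that hold the matches are shown so that the matches can be seen in place, each read 5′ to 3′ along the gene's strand with the match in capitals. They are EXO1 at chr1:241848154-241848253 (plus strand), FANCD2 at chr3:10026387-10026486 (plus), FANCA at chr16:89816766-89816865 (minus), XRCC2 at chr7:152676092-152676191 (minus), and FANCC at chr9:95317828-95317927 and chr9:95317702-95317801 (minus).
EXO1: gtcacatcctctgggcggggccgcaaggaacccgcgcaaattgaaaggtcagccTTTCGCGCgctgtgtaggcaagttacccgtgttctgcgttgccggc
FANCD2: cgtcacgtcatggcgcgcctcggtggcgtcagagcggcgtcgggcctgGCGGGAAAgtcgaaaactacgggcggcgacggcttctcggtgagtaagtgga
FANCA: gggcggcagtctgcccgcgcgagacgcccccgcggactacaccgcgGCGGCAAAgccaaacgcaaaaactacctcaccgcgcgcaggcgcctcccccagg
XRCC2: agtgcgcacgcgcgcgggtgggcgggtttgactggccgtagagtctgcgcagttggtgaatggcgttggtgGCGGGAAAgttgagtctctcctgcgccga
FANCC, upstream match: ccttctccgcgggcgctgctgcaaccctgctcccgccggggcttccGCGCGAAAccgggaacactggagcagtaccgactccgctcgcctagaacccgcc
FANCC, match near the start: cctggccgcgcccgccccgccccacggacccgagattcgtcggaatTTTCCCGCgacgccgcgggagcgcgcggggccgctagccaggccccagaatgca
The matches in EXO1 and XRCC2 lie just after the annotated start and that in FANCD2 spans it. Those in FANCA, XRCC2 and FANCD2 and the upstream one in FANCC are on the opposite strand and so read as the reverse complement of the letters searched. The cell cycle homology letters TTTGAA, which are common by chance (15.2% of windows), were in 4 members, UBE2T, BRIP1, ATM and FANCC. All 4 lay below 0, against 17 of the 31 without them, though ATM and FANCC were above 0 in TPM. The median was −0.07 both with and without the letters. Relative to genes of like GC content and transcript length, the medians were −0.27 with them and −0.12 without. Of all measured genes with TTTGAA, 47.8% lay below 0. CCAAT was in 17 members (48.6%), against 43.4% of all measured genes with a promoter. Of these 17, 9 lay below 0 (52.9%), against 50.8% of all measured genes with CCAAT. Of the 18 members without it, 12 lay below 0.

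The ratios of the repair genes moved with the sequence of their transcripts. Some members with long transcripts had high ratios, such as BRCA2 (11954 bases in the GENCODE 44 canonical transcript), ATR (8158) and WRN (7575). Others did not: ATM (12915), TP53BP1 (10369), RAD51D (9966) and BRIP1 (8182) lay between −0.08 and 0.03. Short ones such as UBE2T (878), RAD51B (1559) and CHEK2 (1844) had low ratios. The 20 members with longer transcripts had a median of −0.01, with 10 above 0 and 10 below. The 20 with shorter transcripts had a median of −0.19, with 6 above and 14 below. Spearman's rho across the 40 measured members was 0.49 with transcript length and −0.32 with GC content, and across 13734 measured genes it was 0.32 and −0.34. These are descriptions over genes that share the same 2 libraries and are not independent replicates. When each ratio was centred on the median of genes of like GC content and length, 28 members lay below 0 and 12 above, with a median of −0.12 against 0 for all genes so centred. The count past the 0.32 step was again 8 lower and 4 higher of the 40 members. Among all genes so centred, 17.1% were lower and 15.1% higher by the step. Of the members past it, 5 of the 8 lower and 3 of the 4 higher were the same genes as before centring. FANCG (−0.56), CHEK2 (−0.45), BARD1 (−0.66), RAD51B (−0.38) and EXO1 (−0.51) stayed past the step, as did SLX4 (0.52), BRCA2 (0.33) and ATRIP (0.56). FANCA, UBE2T, MUS81 and WRN came within it at −0.32, −0.30, −0.18 and 0.20, while FANCD2 (−0.44), DNA2 (−0.35), ATM (−0.34) and EME1 (0.33) moved past it. The opposite directions of BRCA1 and BARD1 and of EME1 and MUS81 remained, with differences of 0.73 and 0.52 log2. BRCA1 itself was then close to 0, at 0.07, so the difference of that pair lay mostly in BARD1.

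**Figure D5:**
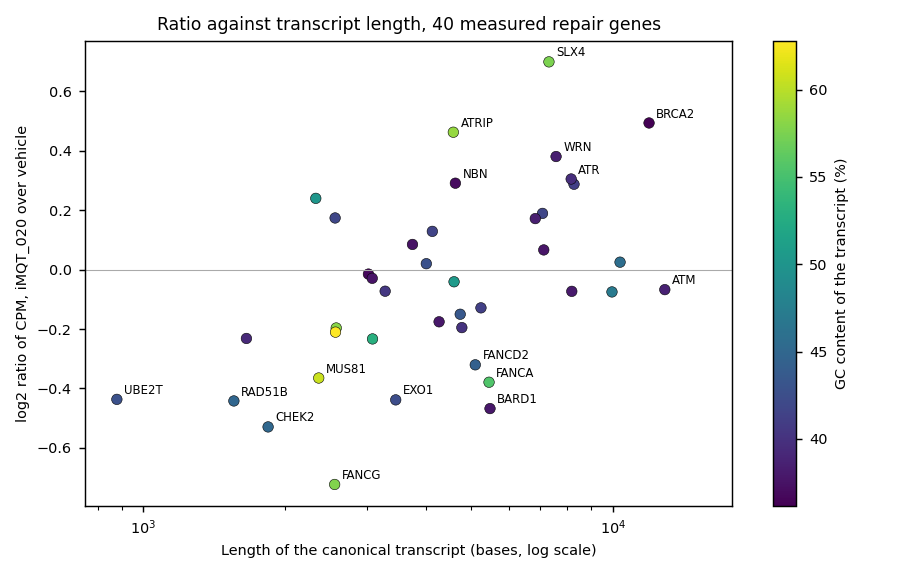
Log2 ratio of CPM for the 40 measured genes against the length of the canonical transcript (log axis), coloured by GC content. Ratios tend to be higher for longer transcripts (Spearman's rho 0.49 over 40 genes), with SLX4 and ATRIP high at GC contents near 58% and BARD1 low at 37.9%.

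The deposited TPM gave a similar picture with a few members displaced. The log2 ratio of TPM exceeded that of CPM by 0.05 at the median of all genes and by −0.15 to 0.18 among members. RAD51B had a TPM ratio of −0.27 in place of −0.44, SLX4 0.86 in place of 0.70, and WRN 0.52 in place of 0.38. BRIP1 went the other way, from −0.07 in counts to −0.22 in TPM. For 6 members, FANCB, FANCC, FANCM, PALB2, RAD54B and ATM, the sign differed between the readouts, and each of these ratios was within 0.13 of 0 in both. A gene's TPM depends on which of its transcripts the reads were assigned to, and transcripts were not given separately in the table used here.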

How the data were processed

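Reads of 1 vehicle and 1 iMQT_020 library were aligned to GRCh38 by HISAT2 with Bowtie2, per the labels' protocols. The submitters' processing notes also list StringTie and edgeR, with no version and no role. How reads were counted, their length and the strand setting were not given in the sources used here. Genes that overlap on either strand could therefore share reads. Whole-number estimated counts for each gene were deposited by the authors, with FPKM (scaled for transcript length and depth) and TPM (scaled to 1 common total) also from the authors. A shorter deposited table repeats the FPKM of 20787 genes. The number of sample columns left unassigned was 0.

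Counts were scaled with TMM in edgeR 4.0.16 (R 4.3.3), with factors of 0.998 (vehicle) and 1.00 (iMQT_020). Log2 ratios of CPM used a prior count of 0.5. A gene that reached 50 counts in either library was called measured (14805 genes). The 2-fold rule and the step of 0.32 log2 describe these libraries and are no test. Intervals take each estimated count as a number of reads and may therefore be too narrow. All 41 members are accounted for, and of companion genes the 4 with the largest ratios are named, with any gene model of at least 50 counts that overlaps a member. Outside this rule, FAAP100, FAAP20, FAAP24, CENPS, MDC1 and SWI5 were named after their values were seen. Members and lists were chosen with earlier results of these data known. Positions are from RefSeq (GRCh38.p14), and transcript length and GC content from GENCODE 44, for 92.8% of measured genes. The ratio calculation was tested on simulated data. Python 3.11.15, pandas 2.3.3 and scipy 1.17.1 were used, and DESeq2 1.42.0 supplied the alternative size factors.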

Additional observations from a re-analysis of the deposited data

How the results depend on the processing

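Over 15 alternatives (scaling by median of ratios, total counts, upper quartile or TMM without mitochondrial and rRNA genes; minimums of 10 or 200 counts or none; a prior count of 5; deposited TPM or FPKM with a pseudocount of 1, or TPM with 0.1; protein-coding genes only; no member overlapping another gene, which left 25; read-through genes summed; centring on GC content and length), the median log2 ratio of the members stayed between −0.12 and −0.05, and the number at least 2-fold apart stayed 0. With deposited TPM, at either pseudocount, 7 members were higher by the 0.32 step in place of 4, the additions being ATR, NBN and RAD50. In the same settings 6 members were lower in place of 8. With a 1.5-fold rule 1 member was higher and 1 lower, and by counting intervals wholly past the step 3 were higher and 6 lower. The matching shares of all measured genes, in TPM or by these other rules, are not given here. These counts therefore have no background beside them and describe the members only. Of the 12 members past the step, 6 stayed past it under each of the 14 alternatives that kept all of them: FANCG, CHEK2, BARD1, EXO1, SLX4 and BRCA2. RAD51B came within it in TPM and FPKM (−0.24 at the least), MUS81 in TPM and after centring, FANCA, UBE2T and WRN after centring, and ATRIP when summed with its read-through gene (0.08). No member past the step changed sign. With a minimum of 10 counts or none, FANCF was also past the step. No replicate could be left out, and no paired analysis was possible because each treatment has 1 library.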
